A study of Mus musculus with 20 samples.

Results

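Wfdc18, Ctse, Gkn3, Cfi, Slc38a4, Prl2c2 and Bpifb5 are 7 of the 24793 genes measured in a set of mouse intestinal RNA libraries. They were selected on their measured RPKM (reads scaled to the length of the gene and to the size of the library), which was high in control Apc Min libraries and near 0 in wild-type (WT) libraries, with no numeric limit on either, and they had also stood among the genes lowest with DM-aKG relative to control in an earlier look at the same values. The difference between control and WT libraries is therefore how the genes were found and is described without a test. Tests of DM-aKG libraries against either group use libraries that served in the choice and are no independent evidence of a direction. All 7 passed the filter on low values, at least 1 RPKM in at least 6 libraries, which 12432 genes passed. Of the 7, 6 (all but Ctse) reached it only with the control libraries counted, so a lower level elsewhere was favoured by the filter too.

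Apc is a scaffold of the complex that marks beta-catenin for destruction, and when both copies are lost beta-catenin drives transcription with TCF/LEF factors. Apc Min mice carry 1 mutant copy in every cell, and intestinal cells that lose the other grow into adenomas, whose epithelium is known to express genes that normal intestine does not. The 7 genes share no pathway: they encode a set of secreted proteins, 2 proteases, and an amino acid transporter, best known from stomach, placenta, liver and mammary gland. DM-aKG, the dimethyl ester of alpha-ketoglutarate, crosses cell membranes and delivers a TCA cycle intermediate that dioxygenases acting on DNA, histones and other substrates need as a cofactor.

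The libraries came from Apc Min samples with DM-aKG (6), Apc Min samples with a control treatment (7) and untreated WT samples (7), so the WT group differs from the others in genotype and in having no treatment. Dose, duration, strain, age and sex are not given in the labels, nor whether a library held adenoma, normal mucosa or both. The titles call the material tissue, while other fields name intestinal organoids, organoid medium and medium low in glutamine for every sample. None of 8 smooth muscle, 6 endothelial and 8 leukocyte or plasma cell markers was at 0 throughout a group. The smooth muscle myosin Myh11 had medians of 165, 84.1 and 145 RPKM in DM-aKG, control and WT libraries, and the endothelial cadherin Cdh5 6.24, 9.02 and 3.03 RPKM. RNA of cell types other than epithelium was thus measured in every group. Which label is right, and so whether mice or cultures received DM-aKG, was not tested. Whether each library is a separate animal is not stated, and p-values here measure only library-to-library spread, which may be technical. In bulk RNA, fewer cells of a type and less RNA per cell cannot be told apart. Depth, estimated from the smallest steps between values, was about 21.3 to 29.3 M reads per library.

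Of the 7 genes, 4 have promoters in the RefSeq table for GRCm38.p6 (mm10). The 250 bases before their start are shown because these genes moved together across the DM-aKG libraries, and capitals mark matches to any of 3 motifs searched on both strands: TCAAAG (a core bound by TCF/LEF proteins), TGACTCA (AP-1) and TTTATG (bound by CDX proteins). Bpifb5 lies at chr2:154223492-154223741 on the plus strand, Gkn3 at chr6:87388936-87389185 on the minus strand, Wfdc18 at chr11:83708754-83709003 on the plus strand, and the longest form of Slc38a4 at chr15:97055957-97056206 on the minus strand.

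Bpifb5: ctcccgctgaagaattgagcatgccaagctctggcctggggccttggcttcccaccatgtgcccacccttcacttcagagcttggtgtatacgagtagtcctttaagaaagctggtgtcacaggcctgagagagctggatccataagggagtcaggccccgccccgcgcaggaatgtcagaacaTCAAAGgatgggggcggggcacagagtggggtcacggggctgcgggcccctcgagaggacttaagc

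Gkn3: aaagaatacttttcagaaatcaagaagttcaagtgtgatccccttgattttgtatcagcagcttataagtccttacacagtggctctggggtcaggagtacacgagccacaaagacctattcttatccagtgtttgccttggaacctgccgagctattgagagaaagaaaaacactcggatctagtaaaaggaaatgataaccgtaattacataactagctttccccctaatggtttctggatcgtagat

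Wfdc18: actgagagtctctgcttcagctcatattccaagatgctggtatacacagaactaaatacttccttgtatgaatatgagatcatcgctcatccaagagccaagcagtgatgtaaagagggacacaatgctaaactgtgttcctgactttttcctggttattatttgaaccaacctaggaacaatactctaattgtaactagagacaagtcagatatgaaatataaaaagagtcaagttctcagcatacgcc

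Slc38a4: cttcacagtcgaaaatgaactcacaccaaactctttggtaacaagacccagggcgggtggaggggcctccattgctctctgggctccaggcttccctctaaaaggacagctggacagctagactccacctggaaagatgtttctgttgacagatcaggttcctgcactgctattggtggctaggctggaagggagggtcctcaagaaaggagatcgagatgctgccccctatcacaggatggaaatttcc

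Bpifb5 held 1 match, to TCAAAG on the plus strand, 66 bases before the start. The windows of Gkn3, Wfdc18 and Slc38a4, at all 3 starts of Slc38a4, held none of the 3 motifs. Among 32851 mouse promoters of the same length, 13.8% held TCAAAG, 4.46% TGACTCA and 10.8% TTTATG. A match of this kind is a description of the letters and not evidence of binding.

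In control Apc Min libraries the 7 genes together summed to between 411 and 1031 RPKM, with a median of 587 RPKM. In WT libraries the sum lay between 1.05 and 3.24 RPKM, with a median of 1.77 RPKM. Every control library lay above every WT library for each of the 7 genes, which the choice of genes fixes and which held for 20.4% of all genes tested. In limma, 43.2% of all genes tested were higher in control than in WT libraries. On the log2(RPKM + 1) scale the fitted difference, control minus WT, was between 4.99 for Prl2c2 and 7.39 for Wfdc18. It understates the change because WT values lie below the added 1 or, for Ctse (WT mean 1.14 RPKM), near it. The order by median level in control libraries was Wfdc18, Ctse, Cfi, Gkn3, Slc38a4, Bpifb5 and Prl2c2, with ranges that overlap between each neighbour and the next.

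**Figure D1:**
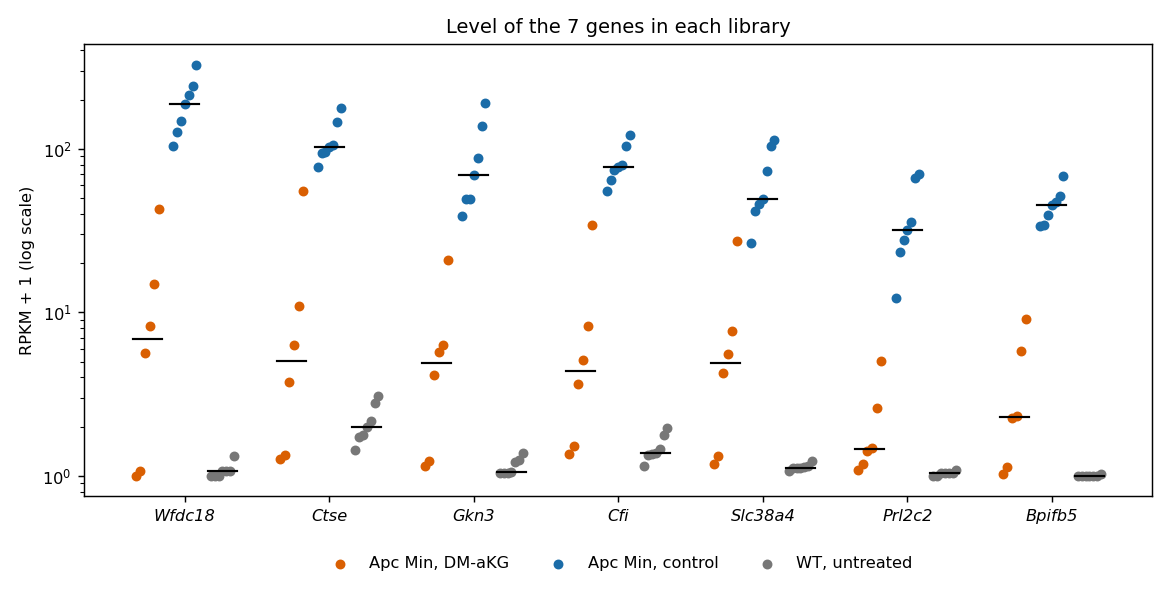
RPKM + 1 (log scale) of each of the 7 genes in every library, with DM-aKG Apc Min (n = 6), control Apc Min (n = 7) and WT (n = 7) libraries from left to right and a line at each group's median. Control libraries lie far above WT for every gene, and DM-aKG libraries spread from WT levels to the lower edge of the control range, which only Slc38a4 reaches.

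With DM-aKG, all 7 genes were lower than in control libraries (limma, adjusted p under 0.05 over 12432 genes), where 27.6% of all genes tested were lower and 5.91% higher. The split over all genes depends on scaling: higher genes made up 17.6% of the calls here, 44.3% after median-of-ratios scaling and 48.6% after quantile normalization. The median over all genes tested was -0.14 on the log2 scale, and that over the 7 genes was -4.19. For 6 of the 7 genes every DM-aKG library lay below every control library, as for 8.19% of all genes tested. The exception was Slc38a4. Against WT, 5 of the 7 genes were higher in DM-aKG libraries, where 21.9% of all genes tested were. The 2 comparisons share the DM-aKG libraries, and they share control and WT libraries with the choice of genes. The fit takes 1 spread per gene for all 3 groups, but the 7 genes varied far less among WT than DM-aKG libraries. The SD of log2(RPKM + 1) was 2.13 with DM-aKG and 0.144 in WT libraries for Wfdc18, and 1.26 and 0.0112 for Bpifb5. The SEs and p-values against WT, and the count of 5, may thus be too favourable. A fit with a separate spread per group was not run.

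Among the secreted proteins, Wfdc18 carries a whey acidic protein domain, a fold shared with protease inhibitors, and is known from mouse mammary gland (chr11:83709015-83711348). Its level was 0, 5.91 and 41.6 RPKM (lowest, median, highest) in DM-aKG libraries, 103, 187 and 326 RPKM in control libraries, and 0, 0.0643 and 0.326 RPKM in WT libraries. DM-aKG replicates 1 and 6 lay within the WT range, replicate 2 was the highest, and none reached the control range. The fitted difference was -5.00 (SE 0.63, limma adjusted p = 5.94e-06) against control and 2.39 (SE 0.63, limma adjusted p = 0.00602) against WT, on the log2(RPKM + 1) scale used for all differences.

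Gkn3 encodes gastrokine 3, a secreted protein of mucous cells of the mouse stomach (chr6:87383256-87388935). It had 0.141, 3.92 and 19.8 RPKM in DM-aKG libraries, 37.5, 67.9 and 189 RPKM in control libraries, and 0.0447, 0.0491 and 0.386 RPKM in WT libraries. Replicates 1 and 6 of DM-aKG again lay inside the WT range and no DM-aKG library reached the lowest control library. Gkn3 differed by -4.24 (SE 0.52, limma adjusted p = 4.54e-06) from control and by 1.82 (SE 0.52, limma adjusted p = 0.0100) from WT.

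Bpifb5 belongs to the BPI fold family of secreted lipid-binding proteins (chr2:154223742-154240902). It had 0.0227, 1.29 and 8.05 RPKM in DM-aKG libraries and 32.7, 44.2 and 67.2 RPKM in control libraries, and was listed at 0 in 6 of 7 WT libraries, with 0.0208 RPKM in WT replicate 6. Every DM-aKG library lay above every WT library and below every control library, but the value in that WT library is what 1 read gives at its estimated depth, and the lowest DM-aKG value is of the same size. Its difference was -4.08 (SE 0.37, limma adjusted p = 8.40e-08) from control and 1.38 (SE 0.37, limma adjusted p = 0.00620) from WT.

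Prl2c2 encodes proliferin, a hormone of the prolactin family that placental trophoblast cells secrete (chr13:12996125-13005383). Its values were 0.0831, 0.451 and 4.03 RPKM in DM-aKG libraries, 11.2, 31.0 and 69.4 RPKM in control libraries, and 0, 0.0423 and 0.0808 RPKM in WT libraries. All 6 DM-aKG libraries lay above the highest WT library and below every control library. Replicate 1 exceeded that WT library by less than the 0.0313 to 0.0430 RPKM that 1 read is worth at the estimated depths. The difference from control was -4.19 (SE 0.36, limma adjusted p = 5.05e-08). The difference from WT, 0.81 (SE 0.36, limma adjusted p = 0.0768), did not pass, and it passed with a pseudocount of 0.1 (adjusted p = 0.00228) or 0.5 (adjusted p = 0.0273) in limma. Over the 7 genes, every DM-aKG library lay above every WT library for 2, Prl2c2 and Bpifb5, against 9.36% of all genes tested. For both, the lowest DM-aKG value and the highest WT value lay within 1 read of each other.

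Prl2c2 is 1 of several near-identical copies, and its level is uncertain as that of a single gene. Of its 50-base words, 83.3% also occur in transcripts of other genes, with 71.5% of all its words in Prl2c3 and 22.2% in Prl2c5, while the other 6 genes share none; this check was added after the values were seen. The ratio of Prl2c3 to Prl2c2 was at most 0.0379 in DM-aKG libraries, lay between 0.00222 and 0.0875 in control libraries, and was 0.0229 in the 5 WT libraries with a value and in DM-aKG replicates 1, 4 and 5. Another copy, Prl2c4, reached 8.77 RPKM in control replicate 5, against 34.5 RPKM for Prl2c2. Its values stood in a nearly fixed proportion to those of Prl2c3, so they are not separate measurements. How reads that match several copies were divided is not given in the sources used here. Summed over the listed Prl2c copies, the level was 0.0930, 0.491 and 4.63 RPKM in DM-aKG libraries, 11.5, 32.5 and 77.8 RPKM in control libraries, and 0, 0.0461 and 0.0881 RPKM in WT libraries. The sum separates the Apc Min groups as Prl2c2 alone does.

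Of the proteases, Cfi encodes complement factor I, a serine protease of plasma that cleaves C3b and C4b (chr3:129835884-129875332). Its values were 0.367, 3.38 and 33.3 RPKM in DM-aKG libraries, 54.1, 76.4 and 120 RPKM in control libraries, and 0.145, 0.387 and 0.957 RPKM in WT libraries. DM-aKG replicates 1 and 6 lay within the WT range. Cfi differed by -4.08 (SE 0.51, limma adjusted p = 5.43e-06) from control and by 1.69 (SE 0.51, limma adjusted p = 0.0136) from WT.

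Ctse encodes cathepsin E, an intracellular aspartic protease found in stomach epithelium and immune cells (chr1:131638306-131675505). It had 0.263, 4.02 and 54.4 RPKM in DM-aKG libraries, 76.4, 102 and 177 RPKM in control libraries, and 0.431, 0.987 and 2.08 RPKM in WT libraries, the highest WT level of the 7 genes. DM-aKG replicates 1 and 6 lay below every WT library, and the other 4 lay above all of them. The difference from control was -4.36 (SE 0.60, limma adjusted p = 1.93e-05), and that from WT, 1.38 (SE 0.60, limma adjusted p = 0.0751), did not pass. Without DM-aKG replicate 1 or replicate 6 the comparison with WT passed (limma adjusted p = 0.0208 and 0.0200).

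Slc38a4 encodes a sodium-coupled transporter of neutral amino acids, known from liver and placenta (chr15:96994820-97055956). It had 0.183, 3.89 and 26.2 RPKM in DM-aKG libraries, 25.5, 48.4 and 111 RPKM in control libraries, and 0.0681, 0.114 and 0.227 RPKM in WT libraries. The Apc Min groups met at a single point, where DM-aKG replicate 2 lay just above control replicate 1. DM-aKG replicate 6 lay within the WT range and the other 5 above it. The difference was -3.70 (SE 0.53, limma adjusted p = 2.71e-05) from control and 1.98 (SE 0.53, limma adjusted p = 0.00688) from WT.

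The SD of log2(RPKM + 1) was larger among DM-aKG than among control libraries for 6 of the 7 genes, at 1.26 to 2.13 against 0.36 to 0.85, and similar for Prl2c2 (0.85 and 0.88). The DM-aKG libraries stood in nearly the same order for every gene. Replicate 2 was the highest of the 6 for all 7 genes, at 10.8% (Prl2c2) to 48.1% (Ctse) of the control mean, with a median of 22.6% over the genes. Replicate 3 came second for 6 of the 7 genes, at 4.28 to 10.7% of the control mean. Replicates 4 and 5 held 1.27 to 5.07% and 1.14 to 7.14%, and replicates 1 and 6 held under 1%: 0.0356 to 0.639% and 0 to 0.493%. The summed level of the 7 genes was 1.43 RPKM in replicate 1 and 1.44 RPKM in replicate 6, both inside the WT range of sums, and 187 RPKM in replicate 2, below the lowest control sum of 411 RPKM. Prl2c2 stood at the lowest percentage of the 7 genes in replicates 2, 3, 4 and 5.

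**Figure D2:**
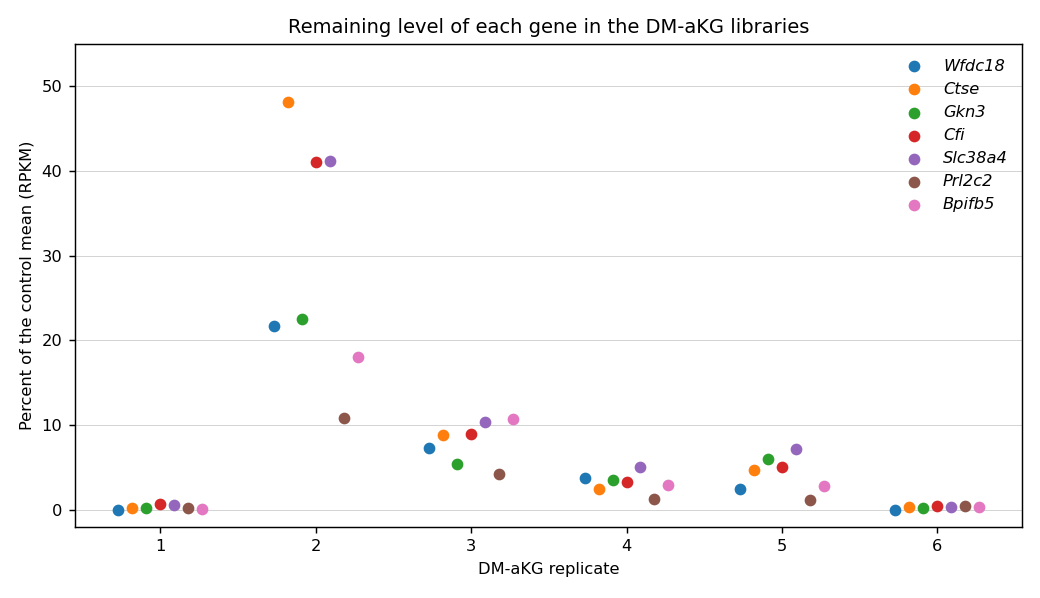
Level of each of the 7 genes in the 6 DM-aKG libraries as a percentage of that gene's mean over the 7 control libraries. Replicate 2 is highest for every gene, from 10.8% for Prl2c2 to 48.1% for Ctse, and replicates 1 and 6 lie under 1%.

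Without DM-aKG replicate 2 all 7 genes were still lower than control, with differences between -5.59 (Wfdc18) and -4.22 (Slc38a4), and the same number, 5 of 7, were higher than WT (limma). In that fit 29.7% of all genes tested were lower than control and 18.0% higher than WT. The mean level of Bpifb5 was 2.60 ± 3.18 RPKM with DM-aKG (SD, n = 6) and 44.6 ± 11.9 RPKM in control libraries (SD, n = 7), and that of Ctse was 12.2 ± 21.0 RPKM with DM-aKG (SD, n = 6) and 113 ± 34.9 RPKM in control libraries (SD, n = 7).

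Replicates 1 to 4 and 5 to 7 differ in a ribosomal RNA precursor, Rn45s, so the genes were also compared within each set. In replicates 1 to 4, 6 of the 7 genes had every DM-aKG library below every control library (4 against 4), as for 15.9% of all genes tested, with differences of the mean log2 value between -4.46 (Wfdc18) and -3.06 (Slc38a4). The 2-sided exact permutation p was 0.0286, the smallest that 4 against 4 allows, for those 6 genes and 0.0571 for Slc38a4. In replicates 5 to 7 all 7 genes were separated (2 against 3), as for 39.2% of all genes tested, with differences between -6.15 (Wfdc18) and -4.45 (Prl2c2), and the exact permutation p of 0.2 is the smallest possible there. The difference between the sets in the DM-aKG effect passed for 0 of the 7 genes in limma (interaction adjusted p = 0.518 to 0.876, lowest unadjusted p = 0.127), against 26 of 12432 genes overall. Its estimates lay between -1.76 and -0.34 with SEs of 0.75 to 1.26, so a difference between the sets of that size would not be detected with these libraries. Within replicates 5 to 7 alone, 0 of the 7 genes were higher than WT in limma (adjusted p = 0.220 to 0.817; 0 of 7 at an unadjusted p under 0.05), where 1.59% of all genes tested were, with 2 DM-aKG libraries in that set.

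Across libraries the 7 genes tracked each other closely within the DM-aKG group and less closely within the control group. Over the 6 DM-aKG libraries, Pearson r of log2(RPKM + 1) for the 21 pairs lay between 0.89 and 0.999 with a median of 0.96, and Spearman rho had a median of 0.94. All genes of a library share its depth and tissue composition, which differ between libraries. Without replicate 2 the median r was 0.95. Over the 7 control libraries r lay between -0.22 and 0.96 with a median of 0.66. Bpifb5 stood apart there, with r between -0.22 and 0.26 to the other genes, which had r between 0.46 and 0.96 among themselves. Bpifb5 was highest in control replicate 7, where Wfdc18 was lowest, and Gkn3, Cfi and Slc38a4 formed the closest trio, with r of 0.93 to 0.96. Control libraries varied by factors of 2.06 (Bpifb5) to 6.18 (Prl2c2) between lowest and highest, and control replicate 3 was the highest for 4 genes and the second for the other 3.

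**Figure D3:**
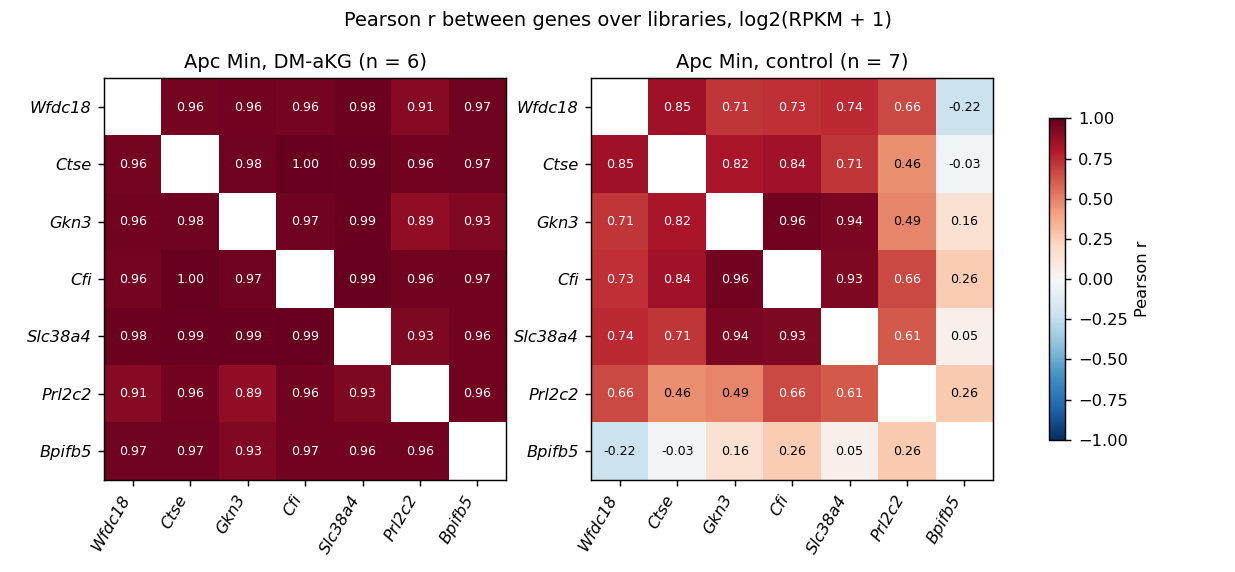
Pearson r of log2(RPKM + 1) between each pair of the 7 genes, over the 6 DM-aKG libraries (left) and the 7 control libraries (right). All DM-aKG pairs are at 0.89 or above, while Bpifb5 lies between -0.22 and 0.26 with the other genes over control libraries.

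The genes most like the mean of the 7 were ranked by the lower of 2 Pearson correlations, over the 7 control and over the 6 DM-aKG libraries. Nkd1, a Wnt target that damps Wnt signalling, came first at 0.97. It had 3.23, 6.15 and 27.3 RPKM in DM-aKG libraries, 40.4, 50.9 and 75.6 RPKM in control libraries, and 2.79, 3.61 and 4.17 RPKM in WT libraries. Its highest DM-aKG library was replicate 2, as for all 7 genes, and its highest control library was replicate 3, as for 4 of them, but Nkd1 is expressed in WT. The next were the transcription factor Nfe2l3 (0.95), the folate hydrolase Ggh (0.95), Ncdn (0.93), R3hdm4 (0.93), the TCF/LEF factor Lef1 (0.93), the SNARE protein Stx11 (0.93) and the protease inhibitor Serpine2 (0.93). Of these 8 genes, Nfe2l3, Lef1 and Stx11 had WT means under 1 RPKM, at 0.0558, 0.0882 and 0.496 RPKM. Ncdn did not differ between DM-aKG and control libraries beyond the threshold (-0.13, SE 0.10, limma adjusted p = 0.317).

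Among 25 Wnt targets of adenomas, 24 were lower and Nkd2 was higher with DM-aKG relative to control (limma), with a median difference of -1.49. Over all genes tested, 27.6% were lower and 5.91% higher. This list and those that follow were written with earlier results of these data known. Of the 25, 4 (Notum, Wif1, Lef1 and Prox1) reached the filter only with the control libraries counted. The members with the smallest p were Dkk2, a Wnt modulator (-1.42, SE 0.12, adjusted p = 3.68e-08), Lef1 (-1.81, SE 0.17, adjusted p = 1.07e-07), Tnfrsf19, a TNF receptor family member (-1.91, SE 0.19, adjusted p = 2.87e-07), and Tcf7, a TCF/LEF factor (-2.01, SE 0.22, adjusted p = 9.99e-07), all by limma. Of 14 genes of fetal and regenerating epithelium, 12 were lower, with a median of -1.94, and 3 of the 14 reached the filter only in that way. Anxa3, a membrane-binding annexin, differed by -1.84 (SE 0.15, limma adjusted p = 2.01e-08).

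The same pattern of level, under 1 RPKM in every WT library and a control mean of at least 10 RPKM, was met by 26 genes. They include 6 of the 7, since Ctse exceeded 1 RPKM in WT, and 20 others. The highest of the others were Wif1 (72.8 ± 22.4 RPKM in control libraries, SD, n = 7) and Notum (72.6 ± 37.9 RPKM, SD, n = 7), both secreted Wnt antagonists, then Bpifb9a, the urea cycle enzyme arginase Arg1 and the retinol transporter Stra6 at 29.2, 27.7 and 26.3 RPKM. The DM-aKG mean lay below the control mean for 25 of the 26 and under 20% of it for 21. Choosing genes on a high control mean can favour a lower DM-aKG mean. Among all 5161 genes with a control mean of at least 10 RPKM, the DM-aKG mean was lower for 69.8% and under 20% for 1.16%. The median over all genes tested, -0.14, also lay below 0, and it was 0.006 after median-of-ratios scaling. The parts of the choice and of the scaling in the 69.8% were not tested. The exception was Gal3st2b, named after its values were seen, with 26.9 RPKM in DM-aKG libraries, 14.1 RPKM in control libraries and 0.683 RPKM in WT libraries; its difference between the Apc Min groups did not pass (0.80, SE 0.31, limma adjusted p = 0.0531). Wif1 and Notum followed the order of the 7 genes: replicate 2 held 39.1% and 49.5% of their control means, and replicates 1 and 6 under 1%. Arg1 did not: its highest DM-aKG library was replicate 1, at 19.1% of the control mean, against 9.29% in replicate 2.

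Families of the 7 genes were looked at next, without the 7 themselves. Their counts stand beside 27.6% of all genes tested lower and 5.91% higher with DM-aKG. Of 21 other genes with whey acidic protein domains, 5 passed the filter, of which Wfdc15b (-1.91, SE 0.26), Wfdc2 (-1.34, SE 0.25) and Slpi (-1.23, SE 0.33) were lower with DM-aKG and Wfdc1 (0.45, SE 0.17) was higher (limma adjusted p = 1.31e-05, 0.000325, 0.00659 and 0.0495). Wfdc15b and Wfdc2 reached the filter only with the control libraries counted, which favours a lower level with DM-aKG. Wfdc17, 2.75 kb from Wfdc18, averaged 1.74 ± 1.27 RPKM in DM-aKG, 2.91 ± 1.21 RPKM in control and 1.58 ± 0.579 RPKM in WT libraries (SD, n = 6, 7 and 7) and did not pass (-0.57, limma adjusted p = 0.0641). It stayed within a few RPKM in all 3 groups, while Wfdc18 beside it reached 326 RPKM.

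Of 16 other genes of the BPI fold family, 4 passed the filter and 3 were lower with DM-aKG: Bpifb9a (-3.57, SE 0.49, limma adjusted p = 1.52e-05), Bpifb1 (-3.32, SE 0.31, limma adjusted p = 1.18e-07) and Lbp, which binds bacterial lipopolysaccharide (-0.74, SE 0.19, limma adjusted p = 0.00466). Bpifb9a and Bpifb1 reached the filter only with the control libraries counted, so the count is a description of these genes and not of the family. Bpifb1 and Bpifb9a flank Bpifb5 on chromosome 2, at 3.37 and 17.0 kb. Bpifb1 had 0, 0.542 and 4.79 RPKM in DM-aKG libraries, 11.2, 17.3 and 35.1 RPKM in control libraries, and 0, 0 and 0.0408 RPKM in WT libraries, so the Apc Min groups did not overlap. Bpifb9a had 0 to 9.70 RPKM in DM-aKG libraries and 10.3 to 64.3 RPKM in control libraries. It was listed at 0 in all 7 WT libraries. Within control libraries Bpifb5 was highest in replicate 7, where Bpifb1 was lowest, and Bpifb1 and Bpifb9a were highest in replicate 3.

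Other genes of the gastric epithelium had lower median levels than Gkn3 in control libraries, even summed. Gkn1 and Gkn2, which neighbour it at 32.3 and 3.76 kb, were low: Gkn1 averaged 0.0563 RPKM in DM-aKG and 1.03 RPKM in control libraries and Gkn2 0 and 0.0538 RPKM, with both listed at 0 in all WT libraries. Of 21 gastric epithelium genes in the table, 6 passed the filter and 4 were lower with DM-aKG: Muc6, a gland mucin (-3.05, SE 0.49), Anxa10, an annexin of gastric epithelium (-2.54, SE 0.25), Vsig1, an adhesion protein (-1.55, SE 0.19), and Aqp5, a water channel (-1.47, SE 0.25), with limma adjusted p of 8.52e-05, 1.87e-07, 2.78e-06 and 0.00014. All 4 of these reached the filter only with the control libraries counted, so the count does not bear on the list. Muc6 averaged 2.91 ± 5.82 RPKM in DM-aKG and 19.2 ± 10.2 RPKM in control libraries (SD, n = 6 and 7), with 14.7 RPKM in DM-aKG replicate 2, 76.8% of the control mean. The summed level of the list was 2.21 to 25.7 RPKM in DM-aKG, 23.3 to 57.3 RPKM in control and 1.11 to 2.54 RPKM in WT libraries. The parietal cell pump subunit Atp4b was at 0 in every Apc Min library. The other pump subunit, Atp4a, had 0.0839 to 0.268 RPKM in control and 0 to 0.106 RPKM in DM-aKG libraries. The hormone gene Gast was at 0 in every control library and reached 0.0816 RPKM with DM-aKG. Pgc and Cldn18 averaged 1.15 and 0.342 RPKM in control and 0.0763 and 0.0140 RPKM in DM-aKG libraries. Sox2 and Chia1 went the other way, at 0.0471 and 0.0143 RPKM in control and 0.0926 and 0.0488 RPKM in DM-aKG libraries. The pit cell genes Tff1 (0.0520 and 1.44 RPKM) and Muc5ac (0.0382 and 0.277 RPKM), and Tff2 of neck cells (0.0543 and 0.28 RPKM), had low means in DM-aKG and control libraries.

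**Figure D4:**
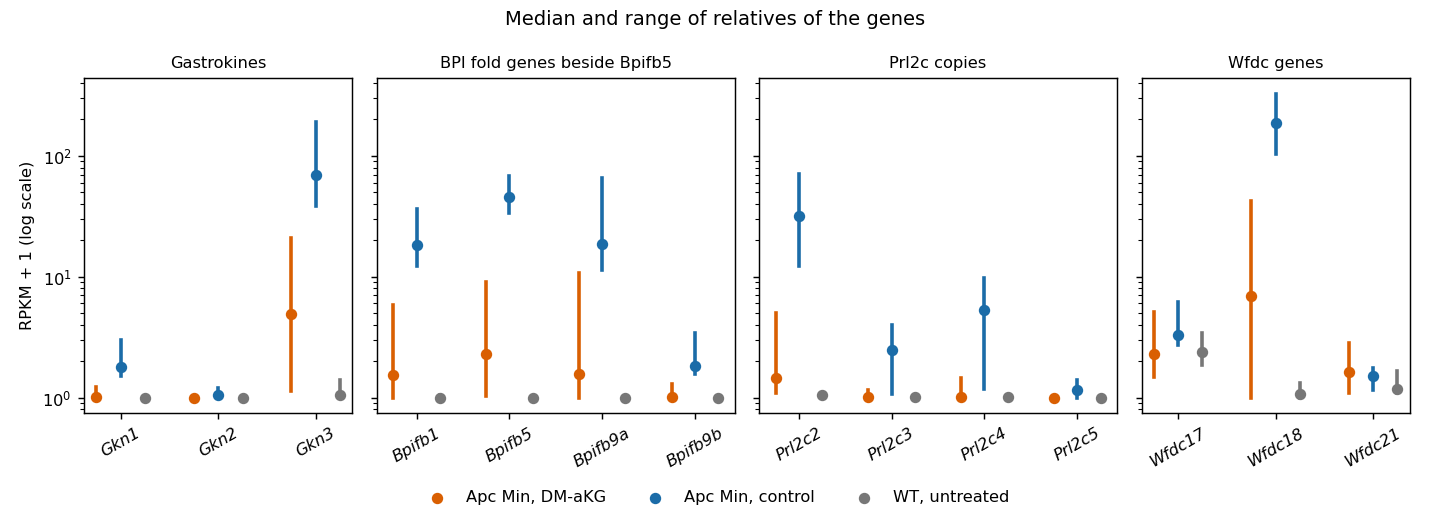
Median (point) and range (line) of RPKM + 1 (log scale) for relatives of 4 of the genes, in DM-aKG (n = 6), control (n = 7) and WT (n = 7) libraries from left to right. For Bpifb1 and Bpifb9a, as for Bpifb5, every DM-aKG library lies below every control library. Gkn1 and Gkn2 stay below 2 RPKM and Wfdc17 below 6 RPKM in every library.

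Of 18 complement genes past the filter, 2 were lower with DM-aKG, the decay-accelerating factor Cd55 (-0.93, SE 0.19, limma adjusted p = 0.000787) and properdin, Cfp (-0.25, SE 0.08, limma adjusted p = 0.0179), the second lost under other scalings. C3, whose product Cfi acts on, averaged 35.6 ± 23.0 RPKM in DM-aKG, 31.5 ± 21.5 RPKM in control and 14.3 ± 5.42 RPKM in WT libraries (SD, n = 6, 7 and 7). It did not pass between the Apc Min groups (0.15, SE 0.37, limma adjusted p = 0.790). Of 6 other SLC38 transporters, 1 was lower, Slc38a1 (-0.67, SE 0.15, limma adjusted p = 0.00155), and the median of the 6 was -0.06, turning to 0.10 and 0.13 under other scalings. Of 4 other aspartic proteases, Bace1 (-0.80, SE 0.13), Bace2 (-0.60, SE 0.10) and the lysosomal Ctsd (-0.51, SE 0.12) were lower (limma adjusted p = 0.000102, 0.000204 and 0.00210). Of 27 other genes listed with the prolactin family, 1 passed the filter, Prlr, which encodes the prolactin receptor and not a hormone of the family. Prlr was higher with DM-aKG (0.69, SE 0.22, limma adjusted p = 0.0227). No other hormone gene of the family passed the filter, so none was tested.

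Neighbours on the chromosome, 3 protein-coding genes on each side of each of the 7, were looked at after the values were seen. Of 42, 23 passed the filter, and 16 were under 1 RPKM in control libraries. Of the 23, 11 were lower with DM-aKG (limma), against 27.6% of all genes tested. Among those 11, at least Bpifb1, Bpifb9a and Slc26a9 reached the filter only with the control libraries counted. Beside Cfi, Pla2g12a, a secreted phospholipase, at 3.27 kb (-1.73, limma adjusted p = 1.90e-06) and the caspase gene Casp6 at 26.1 kb (-2.10, limma adjusted p = 2.09e-05) were lower. Beside Ctse, Slc26a9, a chloride transporter, at 68.5 kb averaged 0.0991 RPKM in DM-aKG, 1.8 RPKM in control and 0.00148 RPKM in WT libraries. Around Slc38a4, whose nearest protein-coding neighbour lies 188 kb away, 1 of 6 was lower, Slc38a1. None of the 3 neighbours of Wfdc18 or the 1 of Gkn3 that passed the filter was called.

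Levels of other cell types' markers differed between the Apc Min groups too, where 5.91% of all genes tested were higher and 27.6% lower with DM-aKG. All 8 smooth muscle genes were higher with DM-aKG than in control libraries (limma; 7 of 8 after quantile normalization), and their summed level was 745 to 1362 RPKM in DM-aKG, 344 to 1213 RPKM in control and 867 to 1505 RPKM in WT libraries. Myh11 differed by 1.13 (SE 0.23, limma adjusted p = 0.000867). Of 8 fibroblast genes 6 were lower, led by the collagen gene Col1a1 (-2.40, SE 0.25, limma adjusted p = 3.91e-07), with sums of 114 to 216 RPKM in DM-aKG and 240 to 352 RPKM in control libraries. Of 7 general epithelial genes 5 were lower and Vil1 was higher, with sums of 2677 to 3699 RPKM in DM-aKG and 3596 to 5228 RPKM in control libraries, and 1 was lower after median-of-ratios scaling. The endothelial and leukocyte lists had 1 lower gene each. Of 9 exocrine pancreas genes, 8 were under 1 RPKM in every library and the elastase gene Cela1 was lower with DM-aKG (-2.40, limma), so that the summed level of 2.87 to 17.9 RPKM in DM-aKG, 23.7 to 60.3 RPKM in control and 2.02 to 3.79 RPKM in WT libraries was nearly all Cela1. Within the DM-aKG group, the libraries lowest in the 7 genes stood at both ends of the smooth muscle sums, with 1362 RPKM in replicate 1 and 745 RPKM in replicate 6, against 909 RPKM in replicate 2. The part of these cell types in the levels of the 7 genes was not tested.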

How the data were processed

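RNA was measured in 20 libraries, grouped by the sample labels. The values are a table of 24795 rows that the authors deposited, read as RPKM because they are not whole numbers and the smallest steps between them vary with gene length; 2 repeated names were dropped. The genome was mm10 and the tools named are Partek, HISAT2 2.0.4 and CASAVA 1.8, per the submitters' processing notes; annotation and strand setting were not given in the sources used here, so overlapping and antisense genes cannot be told apart. RPKM depends on the total of a library, so large changes in abundant genes shift the rest. Read counts were not recovered, and no count test was run.

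From these values, log2(RPKM + 1) was fitted with limma 3.58.1 (trend and robust, statmod 1.5.0) in R 4.3.3 over 3 groups for genes that reached 1 RPKM in 6 or more libraries, with Benjamini-Hochberg adjustment over 12432 genes and calls at 0.05. The fit was also run on simulated data with the same spread in every group and planted differences smaller than those of the 7 genes from control. That run is therefore no check of the p-values of the 7 genes. Python 3.11.15, scipy 1.17.1, pandas 2.3.3 and numpy 2.4.6 gave the rest, and 24228 names matched GENCODE M21. The 7 genes and all lists were chosen with earlier results of these data known. All 7 are named, with up to 4 genes of each list by smallest p, 10 fixed relatives, the 8 most similar genes and the 5 highest companions by level. Alternatives changed scaling, pseudocount, filter, moderation, libraries, replicate sets and the replicate block.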

Additional observations from a re-analysis of the deposited data

Results flagged for a closer look

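In 7 of 21 groups of values, 7 genes in 3 groups of libraries, 1 library lay far from the others by Dixon's test on RPKM. Chance gives this in about 1 of 20 groups if values are normally distributed, which skewed RPKM values need not be. The test was not run on the log2 scale, and the 7 genes are not independent of each other. DM-aKG replicate 2 was far above the other 5 DM-aKG libraries for 5 genes, with 41.6 RPKM for Wfdc18, 54.4 RPKM for Ctse, 19.8 RPKM for Gkn3, 33.3 RPKM for Cfi and 26.2 RPKM for Slc38a4. It was also the highest for Prl2c2 and Bpifb5, without passing that limit. WT replicate 2 stood out for Wfdc18 at 0.326 RPKM, and WT replicate 6 for Bpifb5 at 0.0208 RPKM, the level of 1 read. The other 6 WT libraries were at 0 for Bpifb5, so any single read there would stand out.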

How the results depend on the processing

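All 7 genes were lower with DM-aKG than control under all 33 alternatives. The highest limma adjusted p came from replicates 1 to 4 only, 0.000521 (Prl2c2) to 0.0114 (Slc38a4). The number higher than WT, 5, was 0 with replicates 5 to 7 only and 5 to 7 on leaving out 1 library. Prl2c2 also passed against WT with only the 2 groups compared (limma adjusted p = 0.0348), without DM-aKG replicate 1 (0.0482) or control replicate 1 (0.0434). No difference reversed. With the pseudocount at 0.1 or 0.5 the control minus WT differences moved by more than the spread between libraries.

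Over all genes, DM-aKG against control gave 3432 lower and 735 higher. Median-of-ratios scaling gave 1812 and 1444, quantile normalization 1849 and 1750, replicates 1 to 4 only 1821 and 404, and replicates 5 to 7 only 381 higher. DM-aKG against WT gave 2151 lower and 2722 higher, and 349 and 198 with replicates 5 to 7 only. Leaving out 1 library gave 2866 to 3714 lower and 572 to 881 higher against control, and 1571 to 2265 lower and 2231 to 2976 higher against WT. Without DM-aKG replicate 2, 0 of the 7 genes differed between the replicate sets and the median r was 0.95. The cause was not tested.

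Between same-numbered libraries of different groups, r of deviations was -0.46 to 0.60, over 0.1 in 8 of 19 pairs. These were not compared with differently numbered pairs, so whether replicate numbers pair libraries is not settled. With the replicate block, 7 genes were lower than control and 5 higher than WT, and all genes gave 3603 lower and 758 higher against control and 2335 lower and 3151 higher against WT. Depth limits the values near 0: 1 read of Bpifb5 is worth 0.0208 to 0.0286 RPKM.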
